A study of Saccharomyces cerevisiae with 6 samples.

Results

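The genes described here are the open reading frames (ORFs) that lie nearest to the 16 centromeres of *Saccharomyces cerevisiae*, chosen by name alone. A systematic yeast name holds the chromosome, the arm, a number that counts ORFs outward from the centromere, and the strand, so that *CIT2* (YCR005C) was the ORF numbered 5 on the right arm of chromosome III. Every gene with a number from 1 to 10, on any of the 32 arms and without a suffix, was taken. This gave 260 of the 4970 genes that carried an H3K4me3 peak in at least 1 of the 2 genotypes compared, and the other 4478 genes with plain ORF names served for comparison.

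Trimethylation of histone H3 on lysine 4 (H3K4me3) is laid down by the methyltransferase Set1 in the COMPASS complex and is found on nucleosomes near the 5′ ends of transcribed genes. Jhd2 is the JmjC-domain demethylase of budding yeast that removes it. Budding yeast has point centromeres, in which a short DNA element wraps a single specialised nucleosome and ordinary transcribed genes begin close to either side, in chromatin that is rich in cohesin.

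The study compared *jhd2∆* cells (MSY724, *JHD2* deleted) with WT cells (MSY723), both prototrophic BY4742 strains. Their mating type is Mat a in the labels and MATα in the strain list of the paper. Both were grown vegetatively in YAR, a synthetic medium with raffinose as carbon source and ammonium as nitrogen source, to an O.D.600 of 0.5, then fixed with formaldehyde and immunoprecipitated with an antibody against H3K4me3. There was 1 H3K4me3 library per genotype, and the pan-H3 and whole cell lysate libraries were not analysed here. With no replicate, no difference below has a replicate error or a p-value, and spreads are over genes, which share the same pair of libraries.

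The *jhd2∆* list held 4713 peaks at 4868 genes, and the WT list held 4452 peaks at 4628 genes. The deleted gene, *JHD2* (YJR119C), was absent from the *jhd2∆* list and carried 503 bp of H3K4me3 peak in WT. Reads were single-end and 51 bp long per the labels, and the lists carry no read totals. Median pileup, the height of read coverage at a peak, was 272 in the *jhd2∆* list and 301 in the WT list. The paper notes that normalization in ChIP-Seq makes the total H3K4me3 signal of both genotypes equal, so that a change shared by most genes could be hidden, and does not describe how this entered the peak lists. Pileup is therefore used only as a percentile within its own list, and breadths carry the same limit.

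The names were checked against the positions of the peaks. Of 228 neighbouring pairs of centromere-proximal genes, 226 (99.1%) stood in the order of their numbers. The remaining pairs, YAL004W with *SSA1* and YNR005C with *VPS27*, each shared a peak, so their order could not be seen. The gap between the arms was measured between the innermost WT peaks of the left and the right arm. It ran from 895 bp on chromosome X to 5416 bp on chromosome III, with a median of 2444.5 bp. Because the arm letters placed the gap, the side on which a gene of the WT list lay was no check of its name. Distances of the genes with a peak in both lists from the middle of the gap were 0.733 to 32.8 kb, with a median of 8.57 kb. All 145 plain ORFs within 10 kb of a gap middle belonged to the set.

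Most of these genes carried H3K4me3 in both genotypes. Of the 260, 258 were in the *jhd2∆* list, 251 in the WT list and 249 in both. Against the 306 such names in the RefSeq annotation, 83.3% were listed in *jhd2∆* and 81.0% in WT, and for the other ORFs the shares were 80.7% and 76.1%. Another 49 annotated names were not listed in the lists used here. They included *CIT3* (YPR001W), a mitochondrial citrate synthase, *HTB2* (YBL002W), a histone H2B gene, and *CDC5* (YMR001C), the polo kinase.

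Peaks at the centromere-proximal genes were slightly wider in *jhd2∆* than in WT. Median breadth over the 249 genes was 680 bp in *jhd2∆* (quartiles 588 and 804) and 663 bp in WT (quartiles 559 and 776). The other ORFs had medians of 680 bp in *jhd2∆* and 659 bp in WT. The per-gene difference, *jhd2∆* minus WT, had a median of 13 bp (quartiles -18 and 50) near centromeres and 18 bp (quartiles -13 and 62) elsewhere, so the ranges of the middle genes overlapped almost entirely. Peaks were wider in *jhd2∆* at 146 genes (58.6%), against 63.2% of all 4526 genes compared, narrower at 99 (background 35.9%) and of equal breadth at 4. Breadths in the 2 libraries followed each other closely across these genes (Spearman's rho 0.897, n = 249).

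**Figure D1:**
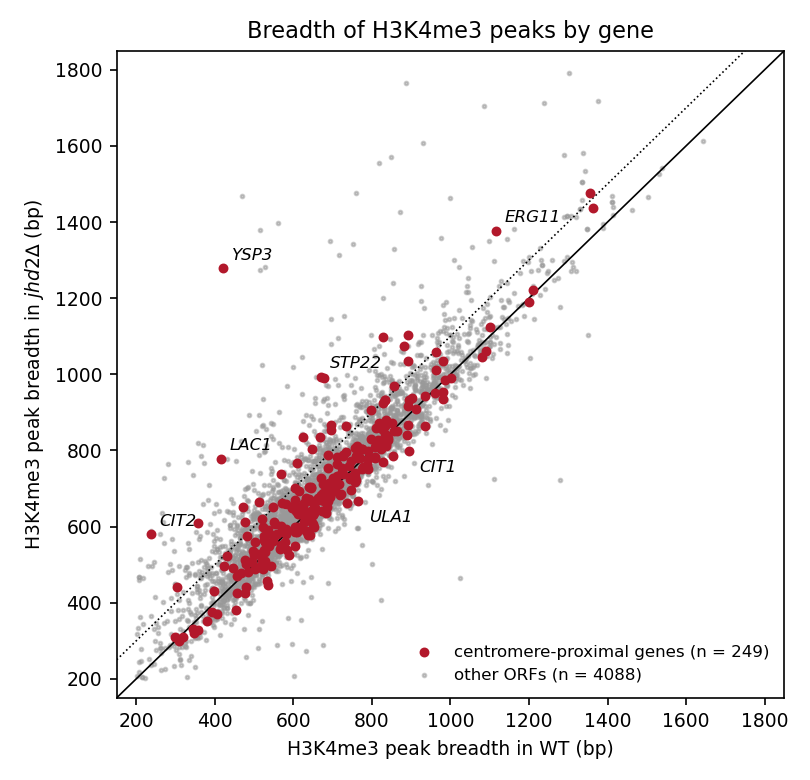
H3K4me3 peak breadth in *jhd2∆* (vertical, bp) against WT (horizontal, bp), with 1 point per gene, red for the 249 centromere-proximal genes and grey for 4088 other ORFs. The solid line marks equal breadth and the dotted line 100 bp wider in *jhd2∆*; most red points lie along the solid line, and *YSP3*, *LAC1* and *CIT2* stand well above it.

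Large changes ran one way. A peak more than 100 bp wider in *jhd2∆* was found at 27 genes (10.8%, background 14.2%), and none was more than 100 bp narrower (background 1.3%). At the lower limit of 50 bp, 61 genes were wider (24.5%, background 29.1%) and 16 narrower (6.43%, background 5.86%). Above 200 bp, 10 genes were wider (4.02%, background 3.62%). The share of wider genes near centromeres was thus below that of all genes at 50 and 100 bp and close to it at 200 bp, and the share narrower by more than 50 bp was slightly above it. With the lowest 20% of peaks by pileup left out of each list, 13 of 204 genes (6.37%) were wider by more than 100 bp, against 10.6% of all 3418 genes then compared. Just inside the limit of 100 bp were *RAD57*, a recombination protein, at 103 bp, YHL008C at 108 bp and *LEU1*, an enzyme of leucine synthesis, at 112 bp. Just outside were *AVT1*, a vacuolar amino acid transporter, at 100 bp and *NOC3* and *RPN14* at 99 bp each. The 27 wider genes lay on 14 of the 16 chromosomes, with 4 on chromosome XV and none on chromosomes II and X.

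The largest increase was at *YSP3* (YOR003W), which encodes a putative subtilisin-like protease. On chromosome XV its peak ran from 331481 to 332758 in *jhd2∆*, 1278 bp, and from 331472 to 331893 in WT, 422 bp. Positions are copied from the lists, which state no genome build. The difference of 856 bp came at the 3′ side: the downstream edge lay 865 bp further into the gene in *jhd2∆*, and the upstream edge moved by -9 bp, negative meaning toward the gene body. Its pileup was low in both lists, at percentile 16.1 in *jhd2∆* and 1.51 in WT.

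*LAC1* (YKL008C), a ceramide synthase gene, had a peak of 778 bp in *jhd2∆* and 415 bp in WT on chromosome XI, a difference of 363 bp with a downstream shift of 376 bp. *CIT2* (YCR005C), the peroxisomal citrate synthase gene induced when mitochondrial function is impaired, had 580 bp in *jhd2∆*, from 121731 to 122310 on chromosome III, and 237 bp in WT, from 122052 to 122288. The *CIT2* peak of WT was the narrowest among the 249 genes, and the peak in *jhd2∆* was 343 bp wider, with the downstream edge shifted by 321 bp. *STP22* (YCL008C), which encodes an ESCRT-I subunit for endosomal sorting, measured 994 bp in *jhd2∆* and 671 bp in WT, and *CSI2* (YOL007C), a gene linked to chitin synthesis, 991 bp in *jhd2∆* and 679 bp in WT. All 5 extended downstream. *STP22* differed from the other 4 in WT pileup, which stood at percentile 65.4, while the WT percentiles of *YSP3*, *CIT2*, *LAC1* and *CSI2* were between 1.40 and 13.1. In *jhd2∆*, *STP22* and *LAC1* both stood at percentile 34.7.

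The next largest increases were at *HAL1* (271 bp), a salt tolerance gene, *ERG11* (261 bp), the lanosterol demethylase of ergosterol synthesis, *SEN34* (253 bp), a tRNA splicing endonuclease subunit, *GPA1* (212 bp), the G protein alpha subunit of the pheromone pathway, and *IZH2* (210 bp), a membrane protein of zinc homeostasis. *ERG11* had one of the widest peaks near a centromere, 1377 bp in *jhd2∆* and 1116 bp in WT, and a high pileup, at percentile 89.0 in *jhd2∆* and 91.3 in WT. *IZH2* was unusual in that its upstream edge moved outward by 121 bp and its downstream edge by 89 bp. The neighbouring phospholipase B genes *PLB1* and *PLB2* on chromosome XIII were wider by 193 and 132 bp. *PLB1* measured 1074 bp in *jhd2∆* and 881 bp in WT, and *PLB2* measured 865 bp in *jhd2∆* and 733 bp in WT. Both also stood higher among the peaks of their list, *PLB1* at percentile 81.2 in *jhd2∆* and 51.1 in WT and *PLB2* at 64.5 in *jhd2∆* and 13.8 in WT.

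The largest decreases were smaller than the increases and came with a pull-in of both edges. *ULA1* (YPL003W), a subunit of the enzyme that activates the ubiquitin-like protein Rub1, had 667 bp in *jhd2∆* and 765 bp in WT, a difference of -98 bp. *CIT1* (YNR001C), the mitochondrial citrate synthase of the tricarboxylic acid cycle, had 798 bp in *jhd2∆* and 895 bp in WT, a difference of -97 bp with shifts of -44 bp upstream and -53 bp downstream. The citrate synthase genes *CIT2* and *CIT1* thus lay near the opposite ends of the range. They also lay far apart in WT pileup, at percentile 9.24 for *CIT2* and 95.6 for *CIT1*. The part of height in this contrast was not tested.

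*UGA2* (YBR006W), succinate semialdehyde dehydrogenase, differed by -89 bp, with 447 bp in *jhd2∆* and 536 bp in WT. *HAT1* (YPL001W), a histone acetyltransferase acting on newly made H4, differed by -75 bp, with 457 bp in *jhd2∆* and 532 bp in WT. *RPN11* (YFR004W), the deubiquitinase of the proteasome lid, differed by -73 bp, with 663 bp in *jhd2∆* and 736 bp in WT. *GCN20*, a regulator of amino acid starvation signalling, had the same difference as *RPN11*, with the wider of its peaks in *jhd2∆* at 381 bp and its WT peak at 454 bp. The 5 narrowest by this measure among genes with 1 peak per list all had both edges inward.

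**Figure D2:**
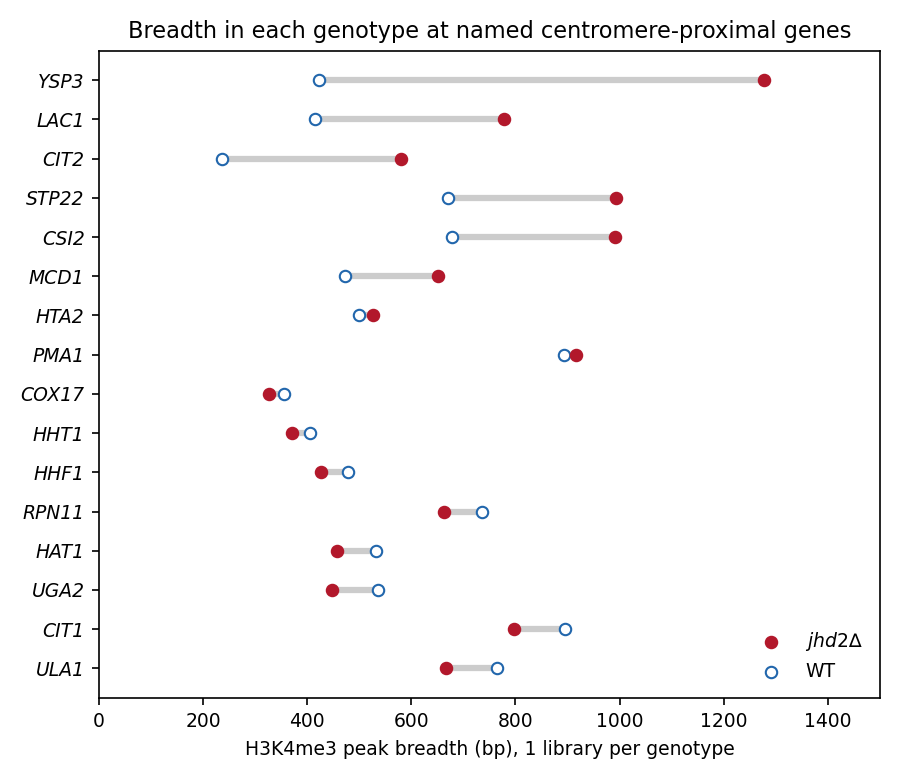
H3K4me3 peak breadth (horizontal, bp) in *jhd2∆* (filled red) and WT (open blue) at 16 named centromere-proximal genes, ordered by the difference, with 1 library per genotype and so no error bars. *YSP3* at the top has 1278 bp in *jhd2∆* and 422 bp in WT, and *ULA1* at the bottom is the gene with the largest decrease, -98 bp.

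A difference in breadth is the sum of the shifts of the upstream and the downstream edge. The upstream edge, on the promoter side, moved by a median of -14 bp (quartiles -23 and -5), and it lay inward in *jhd2∆* at 208 of 249 genes (83.5%, against 81.5% of other ORFs). The median shift of the downstream edge was 24 bp (quartiles 2 and 57) and it lay further into the gene at 191 (76.7%, against 78.3% of other ORFs, whose median shift was 30 bp). Both held at 157 genes (63.1%). Of the 27 genes wider by more than 100 bp, 27 had the downstream edge further, 26 by more than 100 bp with *IZH2* the exception, and 18 had the upstream edge inward. Of the 16 narrower by more than 50 bp, 14 had the upstream edge inward and 14 the downstream edge less far. Genes picked for a large difference must have edges moved to match, so these counts follow in part from the choice. The same holds for the edges of the largest increases and decreases named above. The counts were not set beside all genes past the same limits. *IDP3*, a peroxisomal isocitrate dehydrogenase gene, was narrower in another way: its upstream edge moved by -117 bp and its downstream edge by 55 bp.

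**Figure D3:**
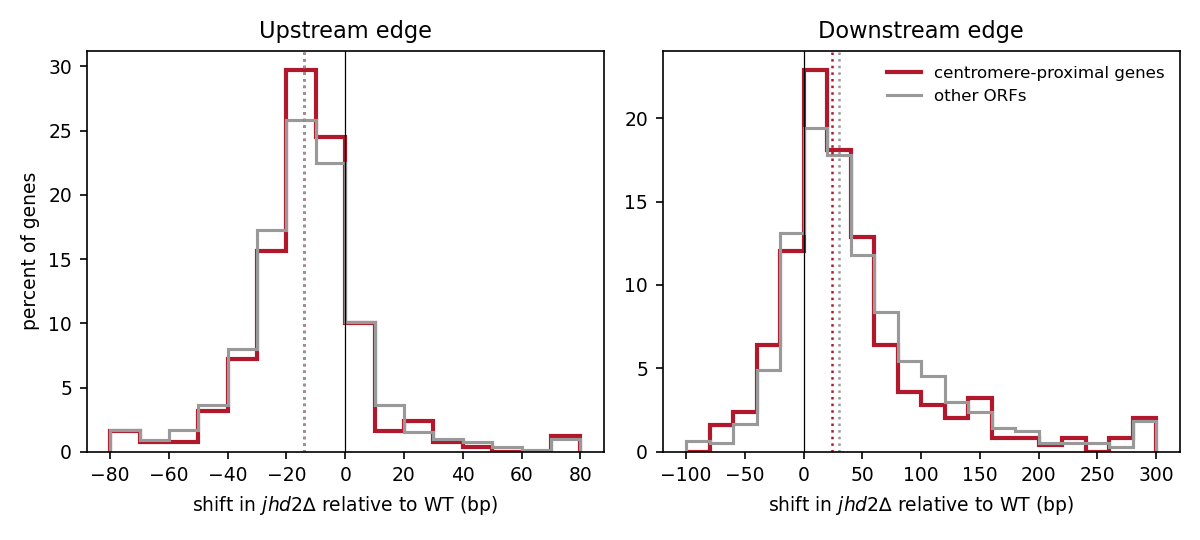
Percent of genes (vertical) by shift of the upstream edge (left panel) and the downstream edge (right panel) in *jhd2∆* relative to WT (horizontal, bp), for centromere-proximal genes (red) and other ORFs (grey); values beyond the axis are gathered in the end bins and dotted lines mark medians. The upstream medians coincide at -14 bp, and the downstream medians are 24 bp near centromeres and 30 bp elsewhere.

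The ORFs numbered 1 are those that flank the centromeres. In this innermost rank 26 genes had a peak in both lists, and the median difference was 2 bp, with 13 wider and 13 narrower. The range ran from -97 bp at *CIT1* to 143 bp at *MNN1*, an alpha-mannosyltransferase gene with 1035 bp in *jhd2∆* and 892 bp in WT. *MNN1* alone passed 100 bp. The gene nearest to a gap middle was *EFM5* (YGR001C), a protein lysine methyltransferase gene at 0.733 kb, with 502 bp in *jhd2∆* and 479 bp in WT. The narrowest gap separated *PRE3*, a catalytic subunit of the proteasome, with 759 bp in *jhd2∆* and 741 bp in WT, from *AVT1*, with 787 bp in *jhd2∆* and 687 bp in WT. Within 895 bp of each other across the centromere of chromosome X, these peaks differed by 18 and 100 bp between the genotypes.

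Going outward, the median differences were 22, 25, 12, 13, -12, 9, 12.5, 23.5 and 18 bp for the numbers 2 to 10, with 19 to 28 genes each, and showed no steady course. The numbers 1 to 5 and 6 to 10 had the same median of 13 bp, with 11 of 132 genes wider by more than 100 bp in the inner set and 16 of 117 in the outer. By distance, the median was 11.5 bp within 5 kb of the gap middle (n = 70), 12 bp from 5 to 10 kb (n = 69), 13 bp from 10 to 15 kb (n = 54), 20.5 bp from 15 to 20 kb (n = 30) and 23.5 bp beyond (n = 26). Across genes, distance and difference had a Spearman's rho of 0.0433, and genes on 1 chromosome share their libraries and neighbours. The share wider by more than 100 bp was 5.71% within 5 kb (4 genes) and 15.9% from 5 to 10 kb (11 genes). It was 13.0% from 10 to 15 kb, 13.3% from 15 to 20 kb and 3.85% beyond, against 14.2% of all genes. The lowest share was thus in the set farthest from the gap middle.

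Extending the count to number 100, the median differences over successive sets of 10 numbers were 13, 24, 20, 19, 22.5, 13, 8, 9, 19 and 20 bp. The innermost set was therefore level with the numbers 51 to 60 and above the numbers 61 to 80. On 12 of 16 chromosomes the centromere-proximal median was below that of the other ORFs, with a range of -11 to 40.5 bp near centromeres and 12 to 33 bp elsewhere. It was lowest on chromosome XIV, the site of *CIT1*, and highest on chromosome VII. The centromere-proximal medians rest on 12 to 19 genes per chromosome and those of the other ORFs on 49 to 562. The widths of the 2 ranges are therefore not comparable.

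**Figure D4:**
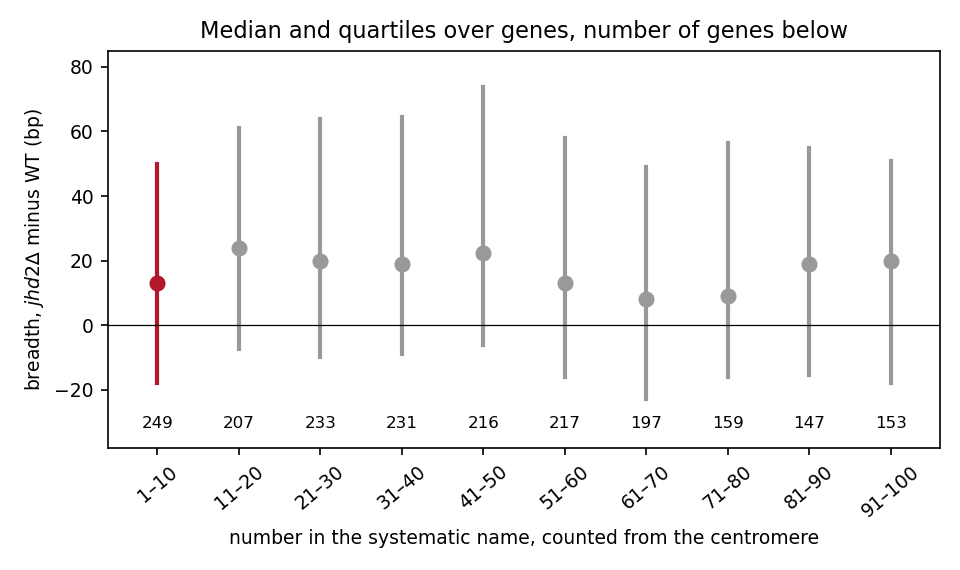
Difference in H3K4me3 peak breadth, *jhd2∆* minus WT (vertical, bp), by number in the systematic name in sets of 10 (horizontal), with medians as points, quartiles over genes as bars and the number of genes below. The innermost set (red, median 13 bp, n = 249) lies within the range of the other sets (grey, medians 8 to 24 bp).

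Values on both arms and in both directions of transcription lay close together. The median was 11.5 bp on left arms (n = 124) and 14 bp on right arms (n = 125), with 10 and 17 genes wider by more than 100 bp. Genes transcribed away from the centromere had a median of 16 bp and a downstream shift of 29 bp (n = 129), and genes transcribed toward it 11.5 and 19 bp (n = 120). For the other ORFs the medians were 17 and 28 bp away from the centromere and 19 and 31 bp toward it.

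Centromere-proximal peaks ranked slightly above the middle of each list in height. Their median pileup percentile was 59.3 in *jhd2∆* and 54.5 in WT, and for the other ORFs 51.2 in *jhd2∆* and 49.5 in WT. This was not particular to the innermost genes. The numbers 51 to 60 stood higher, at 61.0 in *jhd2∆* and 57.9 in WT. The remaining sets of 10 numbers up to 100 stood at or below the centromere-proximal medians in both lists. The change in breadth went with the WT height: with genes in 5 sets of about equal size by WT pileup, from lowest to highest, the median difference near centromeres was 60, 34.5, 22, -5 and -9 bp (n = 39, 42, 52, 60 and 56). The other ORFs had 45, 25, 14, 11 and -1 bp. Across the 249 genes, WT pileup and the difference had a Spearman's rho of -0.380, against -0.264 in the other ORFs, and the WT library enters both measures. Of the 27 genes wider by more than 100 bp, 22 were below the middle of the WT list in pileup. The other ORFs had the same pattern: the share wider by more than 100 bp fell from 29.2% in the lowest set to 6.78% in the highest. Near centromeres it was 33.3% in the lowest set and 3.57% in the highest.

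**Figure D5:**
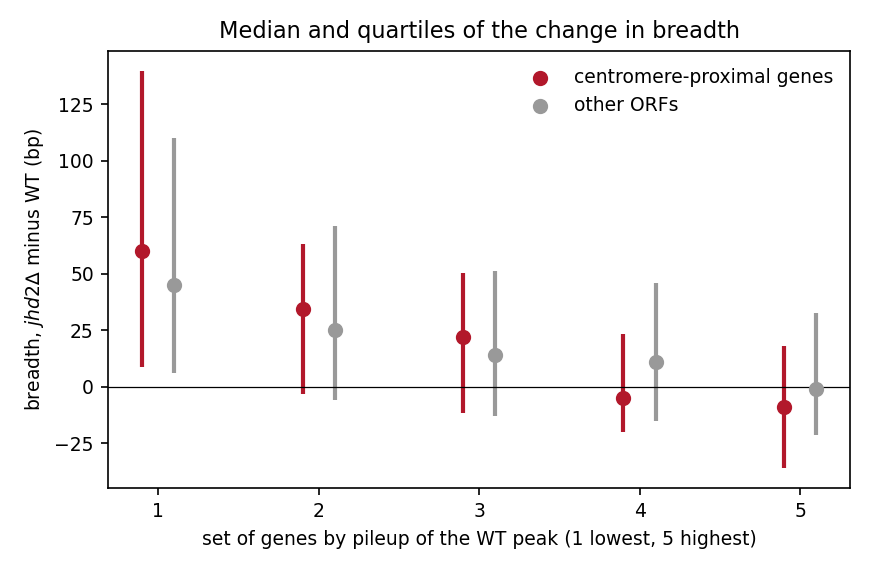
Difference in H3K4me3 peak breadth, *jhd2∆* minus WT (vertical, bp), by set of genes on WT pileup in 5 steps, lowest at 1 (horizontal), for centromere-proximal genes (red) and other ORFs (grey), as medians with quartiles over genes. Red medians go from 60 bp in the lowest set to -9 bp in the highest, and grey medians from 45 to -1 bp.

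Some genes stood at different places in the height order with nearly the same breadth. *NUG1*, a GTPase gene of ribosome assembly, stood at percentile 87.1 in *jhd2∆* and 34.5 in WT, with breadths of 513 bp in *jhd2∆* and 478 bp in WT. *COQ1*, for the ubiquinone side chain, stood at 56.2 in *jhd2∆* and 16.4 in WT with 688 bp in each. *RPT2*, a proteasome ATPase, went the other way, at 25.6 in *jhd2∆* and 71.6 in WT. A change of more than 30 percentile points upward was seen at 11 genes (4.42%, background 4.22%) and downward at 8 (3.21%, background 2.85%).

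The set held some genes of cohesion, the kinetochore and the cell cycle. Whether such genes are more frequent near centromeres than elsewhere was not tested. *MCD1* (YDL003W), the kleisin subunit of mitotic cohesin, had 652 bp in *jhd2∆* and 472 bp in WT, a difference of 180 bp, and its pileup percentile was 68.9 in *jhd2∆* and 19.7 in WT. *NSE1*, a subunit of the Smc5-Smc6 complex, had 853 bp in *jhd2∆* and 697 bp in WT. *SMC1*, which pairs with Mcd1 in cohesin, had 677 bp in *jhd2∆* and 693 bp in WT. The values of *MCD1* and *SMC1* thus had opposite signs.

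The other members of this list of 10 cohesion, kinetochore and cell cycle genes differed by less than 50 bp: *CDC4*, an SCF ubiquitin ligase subunit (35 bp), *CHL1*, a cohesion helicase (28 bp), *APC11*, an anaphase-promoting complex subunit (13 bp), and *DSN1*, a kinetochore protein (-19 bp). Over the 7 genes with both peaks the median was 28 bp, against 17 bp over all genes, with 5 wider (background 63.2%) and 2 narrower (background 35.9%). *CDH1*, an activator of the anaphase-promoting complex, was listed in *jhd2∆* only, and *CDC5* and *REC8*, the meiotic kleisin gene, were not listed in either.

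The histone genes near centromeres had narrow peaks and were short, with a median length of 398 bp, against 1256 bp over the 249 genes. *HHF1* (YBR009C), for H4, had 426 bp in *jhd2∆* and 478 bp in WT, its divergent partner *HHT1* (YBR010W), for H3, 371 bp in *jhd2∆* and 406 bp in WT, and *HTA2* (YBL003C), for H2A, 526 bp in *jhd2∆* and 500 bp in WT. The H3 and H4 pair was narrower and the H2A gene wider in *jhd2∆*.

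Among 11 genes of chromatin regulation, all in both lists, the median was 0 bp, 4 were wider (background 63.2%) and 5 narrower (background 35.9%), and none was wider by more than 100 bp (background 14.2%). The range ran from *HAT1* to *RTT109*, an H3 acetyltransferase gene, at 64 bp (703 bp in *jhd2∆* and 639 bp in WT). *SWD1*, a subunit of the COMPASS complex that makes H3K4me3, had 648 bp in *jhd2∆* and 618 bp in WT. In the transcription machinery, with 10 of 11 genes in both lists, the median was 2 bp, from -45 bp at *TFC8*, a TFIIIC subunit, to 49 bp at *SSL1*, a TFIIH subunit. The remaining member of that list, *TFG2* of TFIIF, was listed in *jhd2∆* only.

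Mitochondrial and peroxisomal metabolism held both *CIT1* and *CIT2*, and 12 of its 15 genes were in both lists, with a median of 6.5 bp. *PDH1*, a propionate pathway gene, had 804 bp in *jhd2∆* and 648 bp in WT, and *ICL2*, the mitochondrial methylisocitrate lyase gene of the same pathway, 1438 bp in *jhd2∆* and 1364 bp in WT. Both lie on the right arm of chromosome XVI and were wider. *COX17*, the copper chaperone for cytochrome oxidase, had 327 bp in *jhd2∆* and 356 bp in WT, and *SOD2*, the mitochondrial superoxide dismutase gene, 762 bp in *jhd2∆* and 788 bp in WT. *COX17* and *SOD2* were both narrower in *jhd2∆* and stood high in both lists by pileup, with WT percentiles of 95.6 and 97.9.

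All 6 mitochondrial ribosomal protein genes were narrower in *jhd2∆* (background 35.9%), by -46 bp at *MRPL13* to -3 bp at *MRP17*, with a median of -12 bp. *MRPL13* had 496 bp in *jhd2∆* and 542 bp in WT. These genes are short, with a median length of 672.5 bp, against 1256 bp over the 249 genes. Of the 6, 3 fell in the shortest 20% of ORFs by length, where 57.4% of the 813 other ORFs were narrower, with a median of -7 bp. The 3 cytosolic ribosomal protein genes were at -25 bp (*RPL14A*), -9 bp (*RPL27A*) and 5 bp (*RPL14B*).

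Ribosome biogenesis had the largest median among the 11 lists, 39 bp over 17 genes, with 14 wider (background 63.2%) and 3 narrower. *RCL1*, an endonuclease-like protein of the small subunit processome, had 767 bp in *jhd2∆* and 610 bp in WT. *RLP7*, a ribosomal-like protein of large subunit assembly, had 664 bp in *jhd2∆* and 512 bp in WT. At the other end, *TSR3*, an rRNA modification enzyme gene, had 864 bp in *jhd2∆* and 935 bp in WT. The median WT pileup percentile of this list was 39.4, lower than that of the mitochondrial ribosomal proteins at 63.7, and the part of height in these values was not tested.

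The proteasome list, with 6 of 7 genes in both lists, had a median of 29.5 bp, from -73 bp at *RPN11* to 99 bp at *RPN14*, an assembly chaperone gene. Carbohydrate metabolism (5 genes) had a median of -1 bp, from -45 bp at *PMI40*, mannose phosphate isomerase, to 78 bp at *GAL3*, the galactose sensor. Amino acid metabolism (8 genes) had a median of -4 bp, from *UGA2* at -89 bp to *LEU1* at 112 bp. *PMA1*, the plasma membrane proton pump gene, had 916 bp in *jhd2∆* and 893 bp in WT. The paper picked *PMA1* for ChIP-qPCR because its breadth had not changed in ChIP-Seq. It reported markedly more H3K4me3, relative to pan-H3, along the gene in *jhd2∆*, also in a biological replicate. The breadths here do not measure that level.

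Some genes were listed in 1 genotype only. There were 9 in *jhd2∆* only (background 6.88% of all listed genes) and 2 in WT only (background 2.05%). *ADY2*, an acetate transporter gene, was in *jhd2∆* only, with a peak of 451 bp and a pileup at percentile 0.349, near the lowest of its list. The other 8 formed 4 divergent pairs, in which neighbouring genes are transcribed away from each other. They were *YEA4* (967 bp) with *VAB2* (450 bp), *ERP6* (691 bp) with *CDH1* (704 bp), *PRP18* (735 bp) with *TFG2* (665 bp), and *MMM1* (812 bp) with *LMO1* (677 bp). They encode, among others, a splicing factor (*PRP18*) and a subunit of the tether between endoplasmic reticulum and mitochondria (*MMM1*).

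In each of these 4 intervals the WT list had no peak, and the running number in its peak names skipped exactly 1 value. Over all intervals between listed neighbours, 16.3% of 4436 in WT and 14.3% of 4697 in *jhd2∆* skipped a number. For these 8 genes the lists do not account for every WT call. At *ADY2* the WT numbering skipped no value and no WT peak overlapped, and at the genes found in WT only the *jhd2∆* numbering skipped 1 value each. The genes in WT only were *ECT1*, a phosphatidylethanolamine synthesis gene, with 672 bp, and *FOX2*, a peroxisomal beta-oxidation gene, with 213 bp and a pileup at percentile 0.335. *ECT1* lies next to *PRP18*, and its WT peak began 141 bp from the nearest *jhd2∆* peak, that of *PRP18*.

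Neighbouring genes were sometimes missing together. Of 80 divergent pairs of centromere-proximal genes, neither gene was listed at 7 (8.75%) in *jhd2∆* and at 11 (13.8%) in WT. The shares were 2.29% in both genotypes for 131 tandem pairs (3 pairs) and 5.06% in both for 79 convergent pairs (4 pairs). Among other ORFs the divergent pairs had 10.5% in *jhd2∆* and 16.4% in WT. Their tandem pairs had 5.68% in *jhd2∆* and 7.73% in WT, and their convergent pairs 4.91% in *jhd2∆* and 5.44% in WT. In *jhd2∆* all 7 intervals, and in WT all 11, had a skipped number. The 7 pairs missing from both lists were *MDM10* with *SPO7*, *DFP3* with *SAT4*, *NAS2* with *YIA6*, *MPH1* with *AIM21*, *PRI1* with *MSL1*, *MDM12* with *COQ10*, and *REC8* with *HAA1*. *MDM10* and *MDM12* encode further parts of the tether that holds Mmm1.

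By position, 247 of 257 *jhd2∆* peaks (96.1%) overlapped a WT peak at centromere-proximal genes by at least 1 bp, as did 247 of 249 WT peaks (99.2%) with *jhd2∆* peaks. The same shares over the peaks of all genes were not computed, so these values say nothing particular about centromere-proximal genes. No *jhd2∆* peak covered more than 1 WT peak, so no wide peak in *jhd2∆* was a fusion of listed WT peaks. The peak was longer than the gene itself at 57 genes (22.9%) in *jhd2∆* and 50 (20.1%) in WT, against 18.3% and 17.7% of other ORFs. The longest *jhd2∆* peak, 1477 bp against 1355 bp in WT, was at YAR010C, which belongs to a mobile element with near-identical copies, so the placement of its reads is uncertain.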

How the data were processed

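H3K4me3 ChIP-Seq peak lists of *jhd2∆* and WT cells were used, with 1 library per genotype. According to the methods, the authors aligned reads with Bowtie2 (version 2.2.3 per the labels) to a yeast genome from iGenomes, called narrow peaks with MACS2 and assigned them to genes. The build name and the control used for calling are not given in the sources used here. Normalization that equalizes total signal between genotypes is mentioned without its steps. The authors deposited each peak's position, breadth in bp and pileup, a coverage signal. Peaks were paired by gene, taking the widest peak where a gene had several. Breadth differences are *jhd2∆* minus WT, and edges were oriented by the strand letter. Pileup percentiles were computed within each list, with ties averaged. Calling can drop low peaks and place edges by height, which touches breadth. The depth behind each peak is unknown, so no read-based interval is given.

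Members and lists were chosen with earlier results of these data known. Named were the ORFs numbered 1 by range, the 5 largest increases and decreases, genes in 1 list only, the histone and cohesion lists, the extremes of the other lists, and *PMA1*, *CIT2* and *COX17*. Other names were chosen after their values were seen. Symbols came from the RefSeq table of assembly R64, which gave them for 257 of the 260 genes. Neighbour order came from the start positions in that table, and all peak positions came from the peak lists. Promoter motifs were not analysed here. The computation was tested on simulated lists. Tables were handled in pandas 2.3.3 and numpy 2.4.6 under Python 3.11.15, intervals with scipy 1.17.1 and plots with matplotlib 3.10.9.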

Additional observations from a re-analysis of the deposited data

How the results depend on the processing

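Of 97 alternative values, 90 moved by less than the interval or the factor of 1.5 taken as unchanged. They covered the peak with the highest pileup, genes with 1 peak per list, unshared peaks, a stricter overlap, percent in place of bp, each of the 16 chromosomes left out, and, chosen after seeing the data, YAR010C left out. Many of these settings could hardly move a value. As 248 of 249 genes had 1 peak in each list, the first 2 settings and the last touched at most 1 gene. The intervals are over genes of the same pair of libraries and measure no error between replicates. Without each chromosome in turn the median difference was 12 to 13.5 bp and the downstream shift 24 to 26.5 bp. The 7 others were counts. Genes wider by more than 100 bp numbered 13 without the lowest 20% of peaks by pileup, 11 with the numbers 1 to 5 and 59 with the numbers 1 to 20, against 27. At limits of 50 and 200 bp they numbered 61 and 10. Genes narrower by more than 100 bp numbered 1 with the numbers 1 to 20, and 16 were narrower by more than 50 bp, against 0. The changed limits and the wider or narrower choice of numbers alter the counts by construction. Without the low peaks the share also fell, to 6.37% of 204 genes, against 10.8% of 249, and the cause was not tested.

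No paired analysis was possible because there was 1 H3K4me3 library per genotype. Without a replicate the shift at a single gene cannot be set against any measured error, and a difference in enrichment between the libraries cannot be told apart from one between the genotypes. Where the numbering of a list skips a value at an unlisted gene, a lack of H3K4me3 is not shown.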
